A study of Bos taurus with 7 samples.

Results

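The miR-23, miR-27 and miR-24 microRNAs (miRNAs) are made from a pair of related gene clusters, called a and b here, and were measured in bovine blood plasma on day 21 after artificial insemination. The 5 mature miRNAs described are miR-23a and miR-27a-3p of the a cluster, miR-23b-3p and miR-27b of the b cluster, and miR-24-3p, which both clusters make. They were taken by name from the 744 bovine miRNAs on the array. All 7 samples came from inseminated Japanese-Black cows whose estrus had been controlled. There were 4 pregnant cows (pregnant 1 to 4) and 3 non-pregnant cows (non-pregnant 1, 3 and 4), each sample on its own array. Cow numbers 1, 3 and 4 occur in both groups, and the labels do not say whether they mark the same animals. The study asked how circulating miRNAs differ between these states. The non-pregnant cows had been inseminated too, and the method of pregnancy diagnosis is not stated in the labels used here. Plasma holds RNA shed by many tissues, and fewer cells releasing a miRNA and less of it released per cell cannot be told apart.

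A miRNA is cut from a hairpin in a longer transcript and represses messenger RNAs that match its seed, the bases near its 5′ end. In both clusters a single primary transcript carries a miR-23, a miR-27 and a miR-24 hairpin in that order, so that 1 transcript gives several mature miRNAs, whose final levels also depend on how each is cut and how long it lasts. miR-23 is known as a repressor of glutaminase, miR-27 as a repressor of fat-cell formation through PPARG and, with miR-23, as a regulator of blood vessel growth, and miR-24 as a repressor of genes of the cell cycle. In the RefSeq annotation of the assembly ARS-UCD2.0, MIR23A, MIR27A and MIR24-2 are neighbours on chromosome 7 and overlap the gene model LOC132345691. MIR23B, MIR27B and MIR24-1 are neighbours on chromosome 8 and lie within AOPEP, which encodes an aminopeptidase.

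Each miRNA had a longer and a shorter probe, with 10 spots of each per array. The longer probes are shown because the a and b members of a family are told apart by very few bases. They are printed 5′ to 3′ as the files give them, with the base that differs between the a and b probes in capitals:
bta-miR-23a: tggAaatccctggca
bta-miR-23b-3p: gtggTaatccctggc
bta-miR-27a-3p: cGgaacttagccact
bta-miR-27b: gcAgaacttagccactgt
bta-miR-24-3p: ctgttcctgctgaactga

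The miR-23a and miR-23b-3p probes overlapped over 14 bases, of which 13 were identical, with the substitution A4T (positions counted from 1 at the 5′ end of the miR-23a probe). The miR-27a-3p and miR-27b probes overlapped over 15 bases, of which 14 were identical, with the substitution G2A (counted from the 5′ end of the miR-27a-3p probe). The miR-27b probe was 18 bases long and the miR-27a-3p probe 15 bases. A signal at 1 of the paired probes can therefore hold some of the other miRNA, and the a and b values of a family are uncertain as separate measurements.

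The files place these probes on the assembly UMD 3.1 (bosTau6), and strand is given only by the order of the coordinates. The longer probes of miR-23a (chr7:12982022-12982035), miR-27a-3p (chr7:12981849-12981863) and miR-24-3p (chr7:12981696-12981712) lay in a row, with coordinates in descending order. The longer probes of miR-23b-3p (chr8:83009660-83009674) and miR-27b (chr8:83009887-83009903) were listed in ascending order. Some of the listed intervals are 1 base shorter than the probe. The miR-27a-3p probe had another listed place at chr7:10102360-10102374, and the miR-23b-3p probe another at chr8:85962089-85962103. The miR-24-3p probes were listed on chromosome 7 only, although both clusters carry a miR-24 hairpin. Because both clusters make miR-24-3p, its a and b sources cannot be told apart, and the listing does not show which cluster it came from.

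The arrays were unequal. They detected 90 to 101 miRNAs in pregnant cows and 45, 84 and 81 in non-pregnant 1, 3 and 4. The summed signal of detected miRNAs was 39154, 34361, 101000 and 23641 intensity units in pregnant 1 to 4, and 12010, 70396 and 58360 in non-pregnant 1, 3 and 4. Row 1 of the slide held the pregnant arrays and row 2 the non-pregnant ones, and an effect of the row cannot be told apart from one of pregnancy. Of the 744 miRNAs, 88 were detected on at least 3 arrays and were tested, among them 4 of the 5 cluster members. No spot was saturated, and the number of arrays limits the precision of every value.

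The brightest cluster member in plasma was miR-24-3p, with lower signals of both miR-27 members and miR-23a, and miR-23b-3p was not called detected. Signals of different probes are not amounts of molecules. The scanner software called miR-24-3p detected on 7 of 7 arrays. It called miR-27a-3p and miR-27b detected on 4 of 4 pregnant and 2 of 3 non-pregnant arrays, and miR-23a on 4 of 4 and 1 of 3. miR-23b-3p was called on 0 of 7. Per array, 4 members were detected in every pregnant cow, and 1, 4 and 3 members in non-pregnant 1, 3 and 4. Under a stricter rule, over 50% of the spots of a probe well above background, 3, 4, 3 and 3 members were detected in pregnant 1 to 4 and 1, 3 and 1 in the non-pregnant cows.

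miR-24-3p had a software signal, the summed signal of its probes in unscaled intensity units, of 57.0, 74.8, 60.5 and 88.7 in pregnant 1 to 4. In non-pregnant 1, 3 and 4 it was 23.8, 34.9 and 52.2. All 4 pregnant arrays lay above all 3 non-pregnant arrays, and the closest pair was pregnant 1 and non-pregnant 4. The means were 70.2 ± 14.5 (SD, n = 4) and 37.0 ± 14.3 (SD, n = 3). Both probes of miR-24-3p were well above background in every cow.

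miR-27a-3p had a software signal of 6.89, 12.0, 11.4 and 14.6 in pregnant 1 to 4. It was 6.18 and 6.11 in non-pregnant 3 and 4, and the miRNA was not called detected in non-pregnant 1. Pregnant 1 lay close to the non-pregnant pair, and the other pregnant cows lay well above it. Where it was detected, the mean of pregnant cows was 11.2 ± 3.22 (SD, n = 4) and that of non-pregnant cows 6.14 ± 0.0537 (SD, n = 2).

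miR-27b, from the other cluster, had a software signal of 9.72, 16.2, 12.3 and 10.7 in pregnant 1 to 4. It was 4.997 and 5.09 in non-pregnant 3 and 4, and not called detected in non-pregnant 1. The lowest pregnant array was pregnant 1, as for miR-27a-3p, but the highest was pregnant 2 here and pregnant 4 there. The mean over detected arrays was 12.2 ± 2.83 (SD, n = 4) against 5.04 ± 0.0660 (SD, n = 2).

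miR-23a had the lowest signal of the detected members in each of the 4 pregnant cows but pregnant 2. It was 4.62, 13.0, 6.11 and 6.72 in pregnant 1 to 4, and 4.51 in non-pregnant 3, the non-pregnant array that called it detected. Pregnant 1 and non-pregnant 3 differed by less than the software's own error of 1.13 for each. A probe of miR-23a was well above background in 1 of 4 pregnant cows and in 0 of 3 non-pregnant cows, so no fold is given for it.

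**Figure D1:**
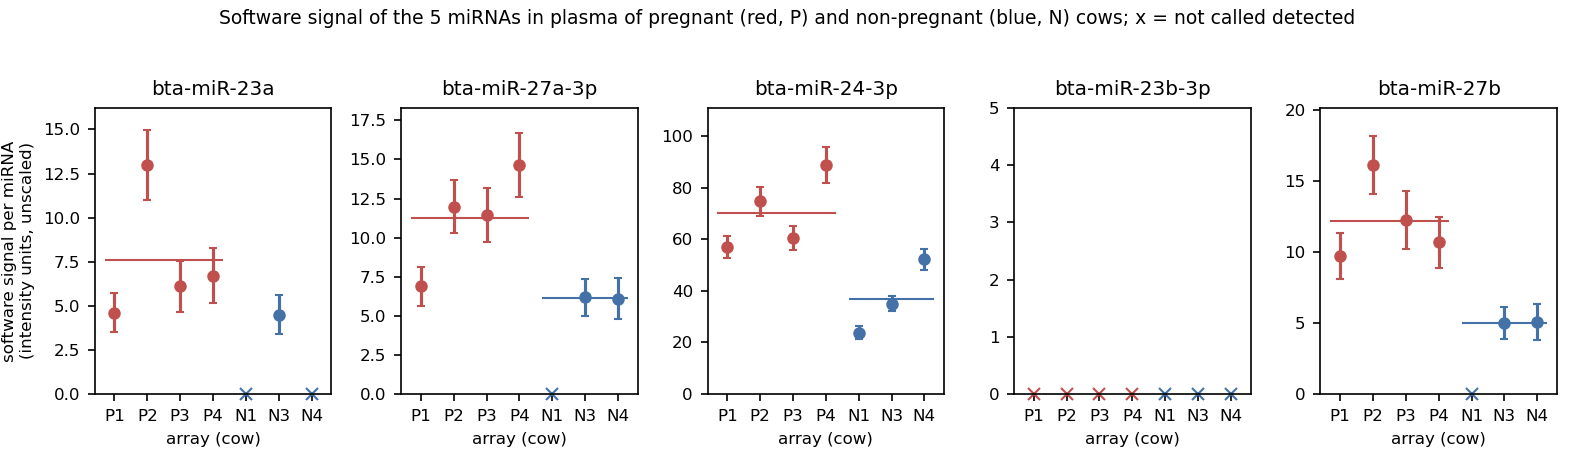
Software signal of each of the 5 miRNAs (vertical axis, unscaled intensity units, a different range in each panel) in pregnant (P1 to P4, red) and non-pregnant (N1, N3, N4, blue) cows. Bars are the software's error of the signal, horizontal lines are group means over detected arrays, and crosses at the axis mark arrays where the miRNA was not called detected. miR-24-3p runs from 23.8 to 88.7 and is drawn in every cow, while miR-23b-3p is drawn only as crosses.

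miR-23b-3p stayed at background on both of its probes. The mean processed signal of a probe is its background-subtracted spot brightness and can fall below 0. For the longer miR-23b-3p probe it was -1.76, 0.45, -0.72 and 0.043 in pregnant 1 to 4 and -3.51, -0.79 and -1.72 in non-pregnant 1, 3 and 4. On the same arrays the longer miR-23a probe, with 13 of 14 shared bases, read 6.97, 14.0, 9.21 and 10.1 in pregnant and 1.63, 6.79 and 4.54 in non-pregnant cows. miR-23b-3p is therefore not well above background here, which does not show that it was absent. The GC content of its longer probe was 60.0%, against 53.3% for that of miR-23a. The 3 other strands of these hairpins that are on the array were not found either. miR-23b-5p, miR-27a-5p and the miRNA named bta-miR-24, whose probe lies in the b cluster at chr8:83010385-83010404, were each called detected on 0 of 7 arrays.

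The members' signals were uneven, with miR-24-3p far above the rest on every array. Of the summed signal of the 5 members, miR-24-3p made up 72.9%, 64.5%, 67.0% and 73.5% in pregnant 1 to 4. In non-pregnant 1, 3 and 4 its share was 100%, 69.0% and 82.3%. The share was highest where few other members were called detected, in non-pregnant 1 with 1 member and non-pregnant 4 with 3. These are shares of signal and not of molecules, because probes of different sequence and length bind with different strength.

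Within an array, the software signal of miR-24-3p, from both of its probes, was 8.27, 6.24, 5.29 and 6.06 times that of miR-27a-3p in pregnant 1 to 4. It was 5.65 and 8.55 times that of miR-27a-3p in non-pregnant 3 and 4. The software counted only the longer miR-27a-3p probe, and with the longer probe of both the multiples were 4.22, 3.36, 2.75 and 3.199 in pregnant and 3.02 and 4.66 in non-pregnant cows. By software signal, the log2 ratio averaged 2.67 ± 0.27 (SD, n = 4) over pregnant cows and 2.80 ± 0.42 (SD, n = 2) over the other group. The groups thus overlapped, and the difference of -0.12 was smaller than either SD. No member but miR-24-3p was detected on all 7 arrays, so no ratio between members was tested.

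The ratio of the a and b members of the miR-27 family depended on which probes were counted. By software signal, miR-27a-3p was below miR-27b in pregnant 1, 2 and 3, with log2 ratios of -0.50, -0.43 and -0.10. It was above miR-27b in pregnant 4, at 0.45, and in non-pregnant 3 and 4, at 0.31 and 0.26. Pregnant cows had a mean of -0.14 ± 0.43 (SD, n = 4), and the non-pregnant pair one of 0.28 ± 0.03 (SD, n = 2), which is a difference of -0.43.

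The software summed both miR-27b probes in pregnant 1, 2 and 3 and only the longer one in pregnant 4, non-pregnant 3 and non-pregnant 4. It summed only the longer miR-27a-3p probe on every array where that miRNA was detected. With the longer probe of each miRNA alone, the log2 ratio was 0.11, 0.12, 0.51 and 0.45 in pregnant 1 to 4 and 0.31 and 0.26 in non-pregnant 3 and 4. All 6 values were above 0, the groups overlapped, and the difference between them was 0.01 in place of -0.43. The arrays with a ratio below 0 were those on which a 2nd miR-27b probe was added in.

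**Figure D2:**
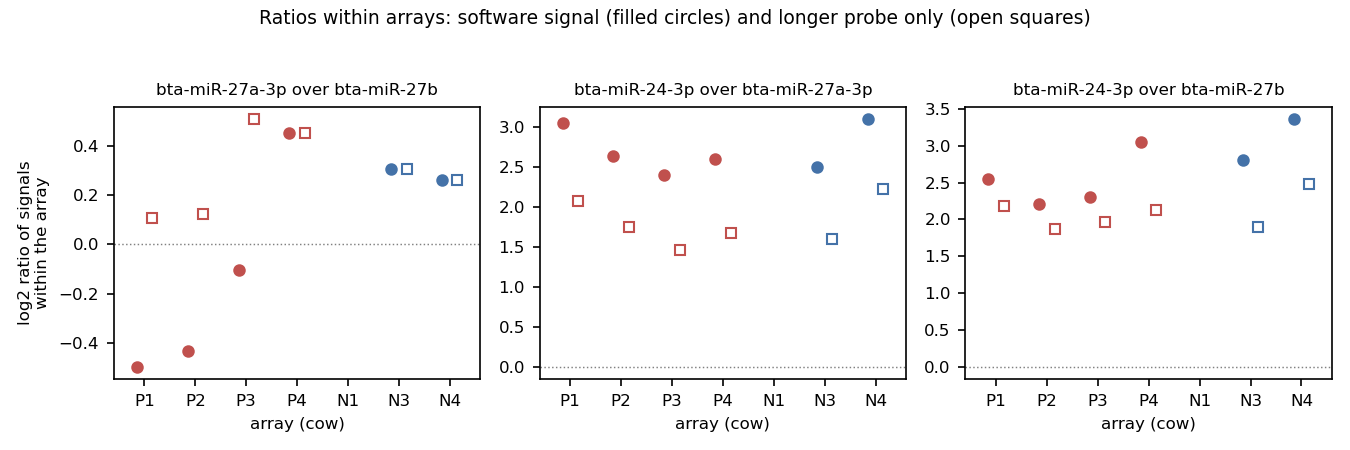
Log2 ratio of the signals of a pair of members within each array (vertical axis) for pregnant (red) and non-pregnant (blue) cows, from the software signal (filled circles) and from the longer probes alone (open squares). N1 is empty because neither miR-27 member was detected there. In the left panel the circles of P1, P2 and P3 lie below 0, while all squares lie above it.

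The same change of probes moved the ratio of miR-24-3p to miR-27b. Its group difference was -0.55 by software signal and -0.15 with the longer probes alone. With the mean log2 level over both probes it was 0.38. The ratio of miR-24-3p to miR-27a-3p differed by -0.12, -0.17 and 0.29 under the same 3 measures, each within 1 SD of the larger group spread. Both differences turned sign only with the mean log2 level, which also sets dim probes to a lower limit.

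The longer probe of a miRNA has a single further base. For miR-24-3p it was 1.04 to 1.23 times as bright as the shorter one over the 7 arrays, and both were well above background. For miR-27a-3p, miR-27b and miR-23a only the longer probe was well above background on any array, which for miR-23a was pregnant 2 alone. The longer miR-27a-3p probe read 10.4, 18.1, 17.2 and 22.1 in pregnant and 4.90, 9.31 and 9.20 in non-pregnant cows. Its shorter probe read 1.78 to 4.07 in pregnant and 0.906 to 1.73 in non-pregnant cows, and was not well above background in any cow.

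The longer miR-27b probe read 9.65, 16.6, 12.1 and 16.1 in pregnant 1 to 4 and 5.68, 7.53 and 7.67 in non-pregnant 1, 3 and 4. It was well above background in 4 of 4 pregnant cows and in 1 of 3 non-pregnant cows, as was the longer miR-27a-3p probe. In non-pregnant 1, where neither miRNA was called detected, both longer probes read above 0 but below the non-pregnant 3 and 4 values. On single arrays the spots of 1 probe spread widely. For example, the longer miR-27b probe had an SD over spots of 5.77 in pregnant 4 and 1.69 in pregnant 1.

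**Figure D3:**
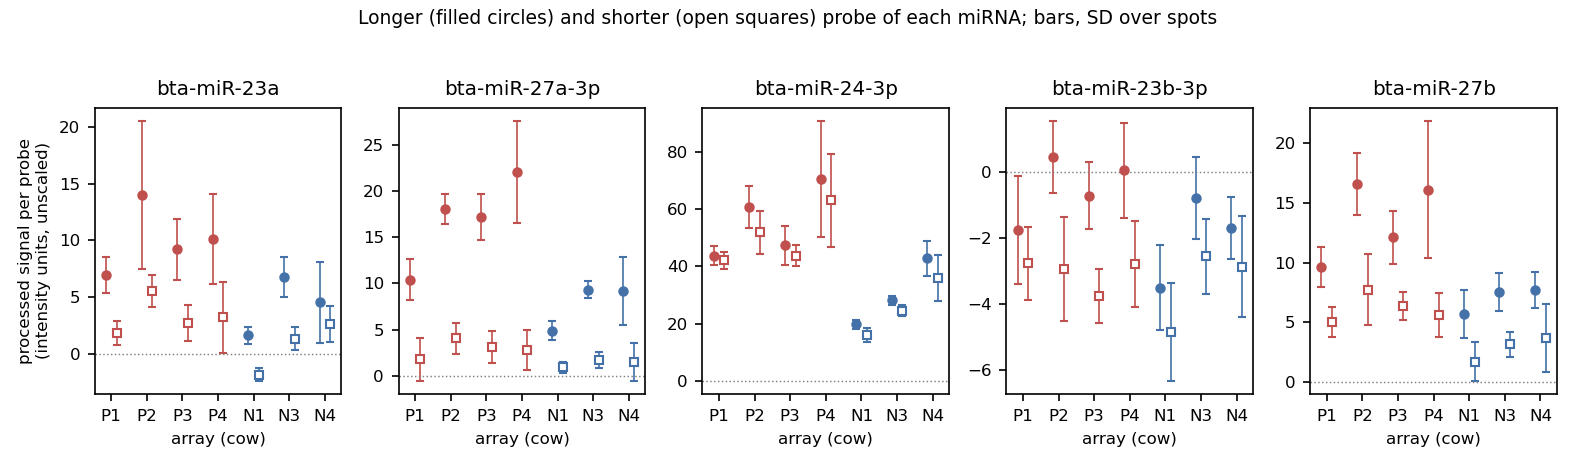
Mean processed signal of the longer (filled circles) and shorter (open squares) probe of each miRNA per array (vertical axis, unscaled intensity units, a different range in each panel), with bars for the SD over the spots of the probe on that array. Pregnant cows are red and non-pregnant cows blue, and the dotted line is 0. The circles and squares lie close together for miR-24-3p and far apart for miR-27a-3p, and both lie near or below 0 for miR-23b-3p.

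Before any scaling between arrays, each of the 4 tested members had all of its pregnant values above all of its non-pregnant values. Among the 88 tested miRNAs, 12.5% (11) were separated in this way by processed signal averaged over the probes, and 0% in the opposite direction. With the software signal, which is 0.1 on uncalled arrays, the share was 14.8% (13), again with all 4 members among them. The filter of detection on at least 3 arrays is met more easily from the pregnant side, so the shares in opposite directions are not on an equal footing. miR-23a, miR-27a-3p and miR-27b were called on fewer than 3 non-pregnant arrays and met it only with pregnant arrays counted. Their separation is a description and not a test. The members are not independent cases, since they share transcripts, arrays and nearly identical probes.

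The separation was narrow for most members. The lowest pregnant and highest non-pregnant processed signals were 42.9 and 39.3 for miR-24-3p, and 6.08 and 5.52 for miR-27a-3p. They were 7.32 and 5.67 for miR-27b, and 4.40 and 4.06 for miR-23a. The group means were 52.9 ± 10.9 (SD, n = 4) against 27.9 ± 10.8 (SD, n = 3) for miR-24-3p, a ratio of 1.90. For miR-27b they were 9.90 ± 2.09 (SD, n = 4) against 4.90 ± 1.07 (SD, n = 3), and for miR-27a-3p 9.94 ± 2.73 (SD, n = 4) against 4.59 ± 1.46 (SD, n = 3). Each longer miR-27 probe was well above background in 1 of the 3 non-pregnant cows and each shorter one in none, so no fold is given for the miR-27 members.

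On the unscaled log2 scale, limma gave a difference (pregnant minus non-pregnant) for miR-24-3p of 0.98 with a standard error of 0.31 (95% interval 0.22 to 1.74, adjusted p = 0.336). For miR-27a-3p it was 0.43 with a standard error of 0.13 (adjusted p = 0.336), and for miR-27b 0.32 with a standard error of 0.11 (adjusted p = 0.336). For miR-23a the adjusted p was 0.751, and no difference is given because all non-pregnant values were at the lower limit of the scale (log2 3.09). The non-pregnant values of miR-27b were at that limit too, so its difference depends on where the limit is set. The same holds for miR-27a-3p, whose shorter probe was below the limit on every array. Its levels in non-pregnant 1, 3 and 4 were 3.09, 3.16 and 3.15. No member passed the threshold of 0.05 after Benjamini-Hochberg adjustment over the 88 tested miRNAs. In limma 0% of the 88 were called and 10 had an unadjusted p under 0.05, among them miR-24-3p, miR-27a-3p and miR-27b. For both miR-27 members that p rests on non-pregnant values at or near the limit. Both also met the detection filter only with pregnant arrays counted, so their p-values are not support for a change. The median difference over all 88 was 0.20. Above it lay miR-24-3p by 0.78, miR-27a-3p by 0.23 and miR-27b by 0.12, while miR-23a lay below it. That median includes dim miRNAs raised to the lower limit, so it is not a plain measure of an array-wide shift.

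A single array decided whether a member was called without scaling. Leaving out pregnant 1, 3 of the 88 miRNAs passed in limma, one of them miR-27a-3p, with a difference of 0.54 (adjusted p = 0.0220). The other two were miR-15b and miR-30d, named after their values were seen. Leaving out any other array, no miRNA passed. The non-pregnant levels of miR-27a-3p lay at or close to the lower limit in these fits, so its call depends on the limit too. It also met the detection filter only with pregnant arrays counted, so that adjusted p is not support for a change. An exact permutation test over the 35 splits of the 7 unscaled values gave miR-24-3p a p of 0.0286, and 0.629 after adjustment over the 88. That unadjusted p is the smallest this test can give, and 4 of the 88 miRNAs reached it, miR-24-3p among them.

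After each array was divided by its 75th percentile over the 57 probes detected on all arrays, the groups overlapped for all 4 members. That divisor was 606, 442, 1645 and 415 in pregnant 1 to 4 and 172, 1052 and 819 in non-pregnant 1, 3 and 4. The share of the 88 tested miRNAs whose groups were fully separated, pregnant above, was 3.41% (3), with 0 of 4 members among them. The scaled log2 level of miR-24-3p was -3.82, -2.98, -5.18 and -2.64 in pregnant 1 to 4. In non-pregnant 1, 3 and 4 it was -3.27, -5.32 and -4.38. Pregnant 3, with the largest divisor, now lay beside non-pregnant 3, and non-pregnant 1, with the smallest, lay above pregnant 1.

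The scaled difference of miR-24-3p was 0.67 with a standard error of 0.75 (95% interval -1.13 to 2.48, limma adjusted p = 0.772), the 6th largest of the 88. That rank depended on the processing, as it was 22nd with the lower limit for dim probes halved and 4th with it doubled. It was 20th with only the brightest probe of each miRNA and 40th with the software signal. Scaled differences of the other members were 0.34 for miR-27a-3p and 0.31 for miR-27b, with standard errors of 0.32 and 0.34. The median over all 88 was 0.18, and it was 0.29 with the lower limit halved and 0.016 with it doubled. In the main fit 0% of the 88 were called in limma, and 1 had an unadjusted p under 0.05. The intervals of miR-24-3p, miR-27a-3p and miR-27b allow a difference of either sign. Leaving out 1 array moved the difference of miR-24-3p to between 0.18 and 1.20. It was 0.18 without non-pregnant 3, the 40th largest of the 88, and 0.34 without pregnant 4, the 15th largest. It was 1.20 without non-pregnant 1 and 1.18 without pregnant 3, the 5th largest in each case.

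Scaled values of the dim members that fell below a lower limit, a log2 value of -6.36, were raised to it. miR-23a was at that limit in 3 of 3 non-pregnant cows and in pregnant 1 and 3. miR-27a-3p was at it in pregnant 3, non-pregnant 3 and non-pregnant 4, where the software had called it detected, and stood at -5.75 in non-pregnant 1, where it had not. miR-27b followed the same pattern, at -5.64 in non-pregnant 1 and at the limit in non-pregnant 3 and 4. For both miR-27 members the highest non-pregnant scaled level was thus that of the array with the smallest divisor.

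**Figure D4:**
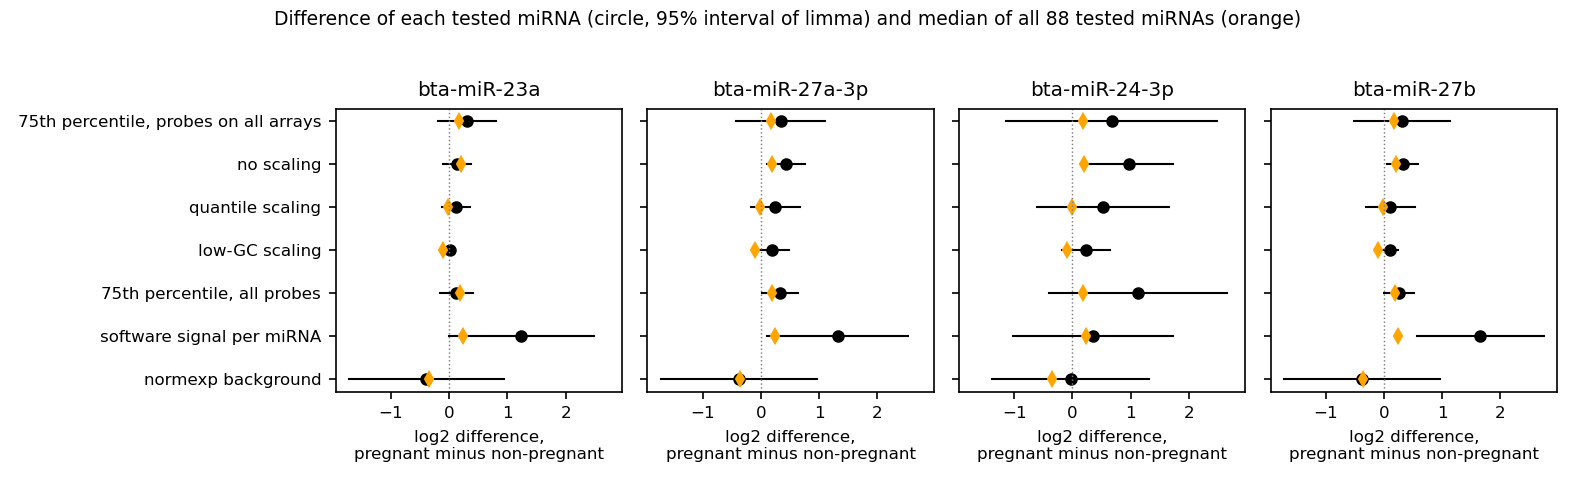
Difference between pregnant and non-pregnant cows (horizontal axis, log2) for each tested member under 7 ways of processing the signal, with black circles for the limma difference, lines for its 95% interval, and orange diamonds for the median over all 88 tested miRNAs. For miR-24-3p the circle is 0.67 in the top row, 0.98 without scaling and -0.03 in the bottom row. Normexp background is the setting in which all 4 circles lie below 0, together with the median of -0.35. The miR-23a panel depends on the lower limit, where its non-pregnant values lie in the top 2 rows.

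The order of the members' differences was another with the software's signal per miRNA, which sums only the probes called detected and sets a miRNA that was not called to a low fixed value, here raised to a lower limit. By this scaled software signal, miR-27b had the largest difference of the members, 1.65 with a standard error of 0.49 (limma adjusted p = 0.310). miR-27a-3p differed by 1.32 (limma adjusted p = 0.427), while miR-24-3p differed by 0.35 (limma adjusted p = 0.775). With every probe averaged after dim values were raised to a lower limit, miR-24-3p was first of these 3, but by software signal it came last. By the ratio of group means of processed signal, where no limit was set, it was not first either with or without scaling. Both miR-27 members were uncalled in non-pregnant 1, so their differences by software signal rest in part on the limit set there. No member passed the threshold in limma with the averaged probes or with the software signal.

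miRNAs of blood cells were present in the same plasma. Of the white-cell list (miR-223, miR-142-5p, miR-142-3p, miR-150, miR-155 and miR-146a), 3 of 6 were detected on at least 1 array, with a summed software signal of 143 to 423 in pregnant and 55.9 to 170 in non-pregnant cows. Of the red-cell list (miR-451, miR-486 and miR-144), 2 of 3 were detected, with sums of 46.9 to 75.7 and 23.6 to 64.2. Of the platelet list (miR-126-3p, miR-126-5p, miR-191, miR-197, miR-21-5p and miR-223), 3 of 6 were detected, with sums of 131 to 378 and 62.7 to 157. miR-144, miR-142-3p, miR-155, miR-146a, miR-191 and miR-21-5p were called on no array.

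The endothelial list (miR-126-3p, miR-126-5p, miR-221, miR-222, miR-10b and miR-100) had 1 of 6 members detected, on 1 pregnant array, with a sum of 7.37 there and 0 elsewhere. Of the liver miRNAs, miR-122 was called on 3 pregnant and 3 non-pregnant arrays, and miR-192 on 3 pregnant and 0 non-pregnant arrays. Their sums were 0 to 51.2 in pregnant and 3.26 to 21.9 in non-pregnant cows. The sums of all 5 lists overlapped between the groups. The sums of all 5 lists were higher on average in pregnant cows, and the white-cell and platelet sums share miR-223. The lists' part in the members' differences was not tested beyond the ratios that follow.

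Ratios within an array need no scaling, and 4 miRNAs of these lists were detected on all 7 arrays. With miR-223, which marks myeloid cells, as denominator, the log2 ratio of miR-24-3p averaged -1.85 ± 0.52 (SD, n = 4) in the pregnant group and -1.41 ± 0.16 (SD, n = 3) in the non-pregnant group. That difference of -0.44 had an exact permutation p of 0.257, and 0.857 after adjustment over the 4 ratios. The ratio to miR-486, abundant in red cells, differed by 0.42 (exact permutation p = 0.429, adjusted 0.857). The ratio to miR-451, also of red cells, differed by -0.20 (exact permutation p = 0.886), and that to miR-197 by 0.27 (exact permutation p = 0.771). With 35 splits, 1 fully separated ratio alone could reach no adjusted p below 0.114, so these tests say little on whether miR-24-3p changed apart from blood-cell miRNAs.

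The miRNAs with the pattern over the 7 arrays most like that of miR-24-3p, among the other 39 detected on all arrays, depended on the scaling. Likeness was the mean absolute difference of log2 levels after each miRNA was centred on its own mean. On scaled levels the nearest were miR-1246 (0.37), miR-223 (0.37) and miR-423-5p (0.41), against a median of 0.71 over the 39. On unscaled levels they were miR-19b (0.24), miR-20a (0.32) and miR-423-5p (0.34), against a median of 0.65.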

How the data were processed

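Plasma miRNA was labelled with Cy3 from 50 ng, per the labels' protocols, and per the file headers the scans of the 1-colour arrays went through Agilent Feature Extraction 11.0.1.1. The deposited intensity of a spot is background-subtracted and not scaled between arrays, per the file headers, and the software signal per miRNA sums the probes it called detected, with 0.1 where the miRNA was not called. The deposited detection calls are 0 or 1. The authors also deposited log2 values, which lay at log2 of the software signal plus 3.32 for the 730 of 744 names that matched, and were used as an alternative.

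Outlier and control spots were left out and spots of a probe averaged. Each array was divided by its 75th percentile taken on the 57 probes with over 50% of spots well above background on every array. Values were floored at 0.0122 (8.52 without scaling, each the median over arrays of the lowest detected probe value), put on the log2 scale and averaged over a miRNA's probes. The groups were compared with limma 3.58.1 (R 4.3.3, two-sided, no covariate), at an adjusted threshold of 0.05 (Benjamini-Hochberg over 88 miRNAs). The fit was tried on simulated normal values without a lower limit, so that trial does not cover values raised to the limit. Measures of 1 value per array had two-sided exact permutation tests over 35 splits, whose smallest p is 0.0286.

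The members and lists were chosen with earlier results of these data known. The named miRNAs are the members, their relatives on the array, the marker lists, the 3 most alike to any member detected on all arrays, and any past the threshold. Fits without scaling that left out an array, ratios of longer probes and ratios to marker miRNAs were added after seeing the data. Cow numbers recur in both groups and equal the column on the slide. Deviations of same-numbered cows correlated at 0.09, 0.65 and -0.20, and those of differently numbered cows at -0.62 to 0.43. So few correlations cannot decide whether the numbers mark pairs. The main comparison was unpaired, and a fit with cow number as a block was an alternative.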

Additional observations from a re-analysis of the deposited data

How the results depend on the processing

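No alternative setting of the scaled comparison called a miRNA in limma or the exact permutation test, and leaving out each array in turn gave 0 calls each time, with 0 to 11 miRNAs at an unadjusted p under 0.05. Without scaling, 0 to 3 miRNAs were called when an array was left out. Normexp, which adds an offset of 50 to every spot, turned the 4 tested members to -0.39 (miR-23a), -0.37 (miR-27a-3p), -0.033 (miR-24-3p) and -0.38 (miR-27b), beside a median of -0.35. Their direction was kept in all other settings that tested them; the filter on detection in all 7 arrays tested miR-24-3p alone. With cow number as a replicate block, 0 miRNAs were called and miR-24-3p differed by 0.45 (limma adjusted p = 0.820). The scaling moved the median of all tested miRNAs from 0.18 to -0.02 (quantile) and -0.10 (low-GC probes), and miR-24-3p stayed above it by 0.54 and 0.33.

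Counting members by spots well above background gave a mean of 3.25 per pregnant array in place of 4. The log2 ratio of miR-27a-3p to miR-27b differed by 0.088 with the mean over probes and 0.012 with longer probes, and that of miR-24-3p to miR-27b by 0.38 and -0.15. The ratio of miR-24-3p to miR-451 turned to 0.48 on probe-level signal, and ran from -0.67 to 0.37 when arrays were left out. The ratio to miR-197 ran from -0.053 to 0.79. The cause of the reversals was not tested. Signal over background limits miR-23a and miR-23b-3p most, and with 4 and 3 cows no difference of miR-24-3p within its interval can be dismissed.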
